A study of Mus musculus with 12 samples.

Results

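Nephronectin (Npnt), a matrix protein that integrins bind, and 9 integrin subunit genes (Itgam, Itgb2, Itgal, Itga6, Itgb1, Itgav, Itgb5, Itgb8 and Itga4) were followed through both sorted glial fractions of the mouse hippocampus. The 10 genes were matched by symbol to Ensembl identifiers, and all 10 were found in both tables, which list 27866 genes for the ACSA-2 fraction and 30359 for the CD11b fraction. The set was picked because Npnt separated the vectors in the CD11b libraries, so the CD11b values are described below without a test. Male C57Bl6/J mice received bilateral injections of an adeno-associated virus (serotype 2/9) into hippocampal CA1 at 2 months of age and were killed 2 months later, at 4 months. AAV-A2A carried the adenosine A2A receptor and AAV-GFP, the control, green fluorescent protein, both under the astrocytic GfaABC1D promoter. Magnetic beads against ACSA-2, an astrocyte surface antigen, gave the astrocyte-enriched fraction, and beads against CD11b, applied to the cells that ACSA-2 beads had left, gave the microglia-enriched fraction. Each fraction holds 3 AAV-GFP and 3 AAV-A2A libraries, 12 in all, and no library number occurs in both fractions, which does not show whether the fractions came from the same animals. Cells of the whole left and right hippocampi were sorted, so cells that the virus did not reach are included.

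Integrins are cell surface receptors built of 1 alpha and 1 beta subunit that tie the cytoskeleton to matrix proteins or to counter-receptors on other cells. Nephronectin is a secreted basement membrane protein best known as the ligand of the integrin made of the Itga8 and Itgb1 products in the developing kidney. In the brain, Itgam with Itgb2 forms the complement receptor CR3 of microglia, Itgal with Itgb2 forms LFA-1 of leukocytes, and Itgav pairs with Itgb5 or Itgb8 to bind proteins with an RGD motif, among them latent TGF-beta.

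Npnt, a single gene on the minus strand (chr3:132881745-132950291, GRCm38), and Itgam, on the plus strand (chr7:128062640-128118491), both had higher CPM in every AAV-A2A than in every AAV-GFP CD11b library. The RefSeq promoter windows of this pair, 250 bases before to 50 after the start, are shown because both genes separated the vectors there. So did 12.6% of all genes tested in that direction. Capitals mark GAGGAA or its reverse complement, the core recognised by the myeloid factor PU.1. The windows are chr3:132950242-132950541 (GRCm38, minus strand) and chr7:128062390-128062689 (GRCm38, plus strand).
Npnt: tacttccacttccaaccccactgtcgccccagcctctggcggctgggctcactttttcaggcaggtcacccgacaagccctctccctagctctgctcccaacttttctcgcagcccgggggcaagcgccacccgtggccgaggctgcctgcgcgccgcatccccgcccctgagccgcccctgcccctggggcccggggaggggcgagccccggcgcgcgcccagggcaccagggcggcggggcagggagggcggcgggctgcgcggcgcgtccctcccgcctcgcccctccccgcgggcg
Itgam: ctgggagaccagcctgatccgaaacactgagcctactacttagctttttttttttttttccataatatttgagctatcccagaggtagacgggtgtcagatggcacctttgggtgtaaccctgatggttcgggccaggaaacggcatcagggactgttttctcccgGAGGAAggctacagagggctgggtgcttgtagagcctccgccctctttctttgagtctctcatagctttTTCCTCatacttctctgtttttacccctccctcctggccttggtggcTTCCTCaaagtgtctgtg
The Itgam window held 3 copies, and the Npnt window, with a GC content of 76.7%, held 0. The RefSeq table matched 7 of the 10 members with 8 windows. Another window of Npnt (chr3:132949765-132950064) is not shown and also held 0 copies. GAGGAA was found on either strand in 3 of these 8 windows, those of Itgam, Itgb1 and Itgav, and in 28.3% of all 32851 windows of this length. The cyclic AMP response element TGACGTCA was in 0 of the 8 member windows and in 1.79% of all windows. These matches are letters only and say nothing of factor binding.

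The libraries held 33937067 to 53206974 counted reads on genes, and levels are given as counts per 1000000 reads (CPM) after scaling all 12 libraries together. Adora2a, the gene overexpressed, was at 655 to 927 CPM in ACSA-2 libraries of AAV-A2A and at 23.2 to 25.6 CPM in those of AAV-GFP. In the CD11b fraction it was at 15.0 to 45.2 and 3.77 to 8.30 CPM. Summed astrocyte markers were at 22630 to 35660 CPM in ACSA-2 and 273 to 520 CPM in CD11b libraries, and summed microglial markers at 289 to 544 and 7857 to 64410 CPM. In bulk libraries, fewer cells of a type and less RNA per cell cannot be told apart. Choroid plexus markers summed to 30080 to 74420 CPM in 3 CD11b libraries (GFP-2328, GFP-2329 and A2A-2347) and to 9.71 to 99.3 CPM in the other three, a split that crosses the vectors. The level of long transcripts (over 5000 bases) relative to short ones (under 1500 bases) also moved with the vector. In ACSA-2 libraries the long-minus-short difference in log2 CPM, centred within the fraction, was 0.07 to 0.31 in AAV-GFP and -0.29 to -0.15 in AAV-A2A. In CD11b libraries it was -0.87 to -0.60 in AAV-GFP and -0.11 to 1.29 in AAV-A2A.

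Npnt separated the vectors in the CD11b fraction. It was at 9.15, 14.6 and 19.4 CPM in GFP-2328, GFP-2329 and GFP-2331, and at 56.7, 78.1 and 53.3 CPM in A2A-2343, A2A-2344 and A2A-2347. Every AAV-A2A library was above every AAV-GFP library, with a gap of more than the whole range of the AAV-GFP values. The means were 14.4 ± 5.12 and 62.7 ± 13.4 CPM (SD, n = 3 each), a log2 fold change of 2.10 (SE 0.34), and of 1.89 to 2.34 when each library was left out in turn. These are the values on which Npnt was chosen. In the ACSA-2 fraction Npnt was at 2.71, 4.73 and 3.20 CPM in GFP-303, 306 and 307, and at 7.11, 5.11 and 1.61 CPM in A2A-309, A2A-310 and A2A-313. The AAV-A2A libraries lay on both sides of the controls there, with A2A-309 highest and A2A-313 lowest of the 6. The log2 fold change of 0.39 (SE 0.60) was not called by edgeR's quasi-likelihood test (adjusted p = 0.883). Whether the vector difference of Npnt differs between the fractions was not tested.

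**Figure D1:**
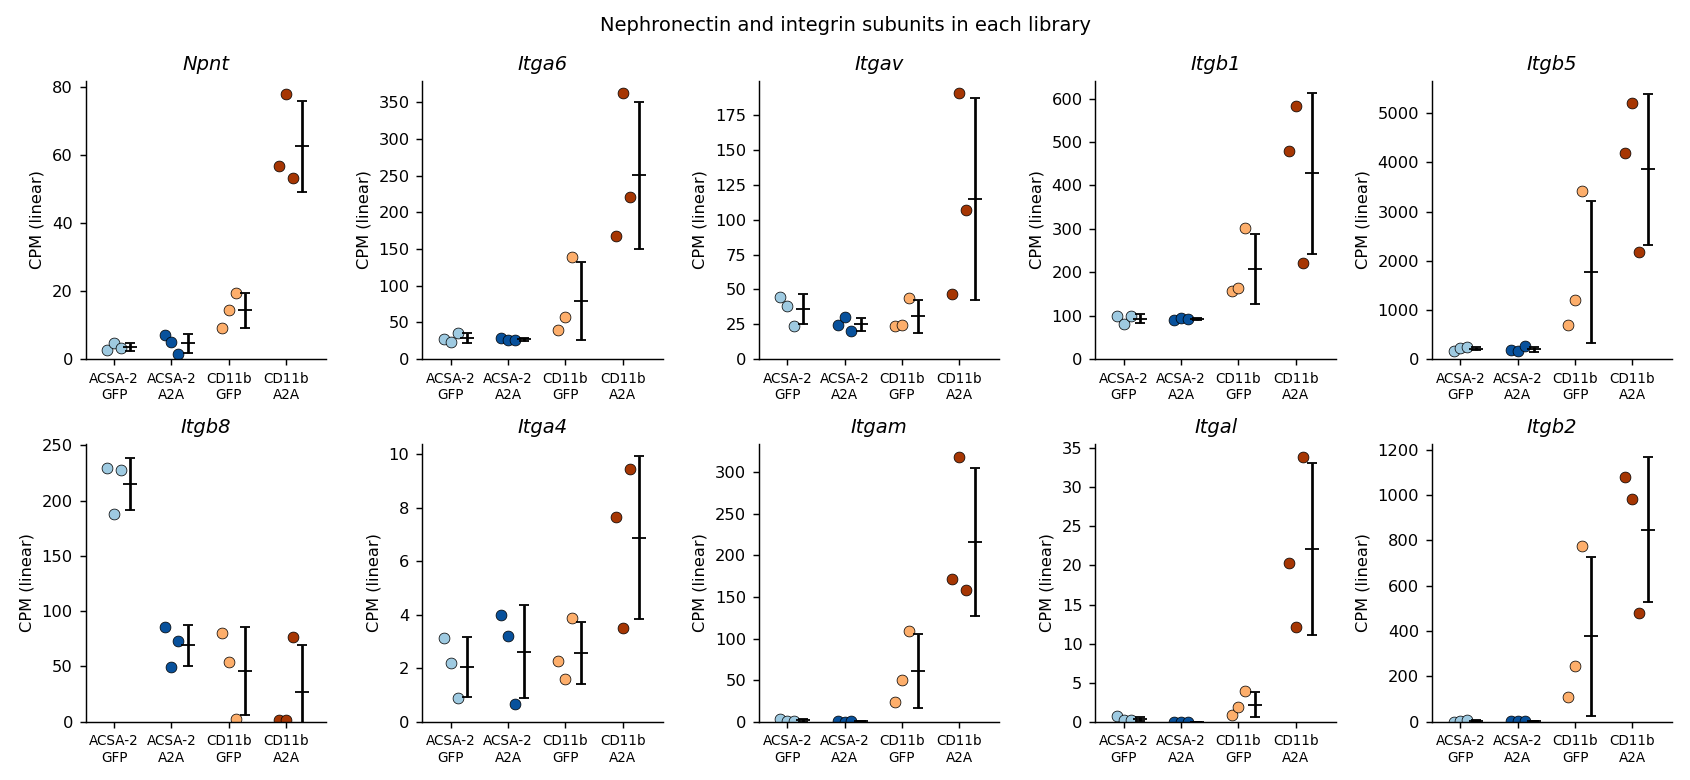
Level of each of the 10 members in every library, in CPM on a linear axis that starts at 0, for ACSA-2 and CD11b libraries of AAV-GFP and AAV-A2A (points are libraries, bars the mean ± SD of 3, drawn from 0 where the SD passes below it). Npnt reached 53.3 to 78.1 CPM in CD11b libraries of AAV-A2A and stayed below 20 CPM in all others, while Itgb8 was highest in ACSA-2 libraries of AAV-GFP, at 188 to 230 CPM.

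Of the leukocyte integrins, Itgam and Itgal separated the vectors in the CD11b libraries and Itgb2 did not. Summed microglial markers were at 7857 to 58100 CPM in AAV-GFP and 21710 to 64410 CPM in AAV-A2A, and values per marker content follow further on. Itgam, whose product CD11b is the sort antigen itself, was at 23.8, 49.8 and 110 CPM in GFP-2328, GFP-2329 and GFP-2331, and at 172, 319 and 158 CPM in A2A-2343, A2A-2344 and A2A-2347. Itgal, the alpha subunit of LFA-1, was at 0.81, 1.83 and 3.97 CPM in the AAV-GFP libraries and at 20.4, 12.1 and 33.9 CPM in the AAV-A2A libraries, in the same order. Neither gene overlapped between the vectors, and Itgal had the larger fold. Markers of monocytes and neutrophils, which also express these genes, summed to 70.7, 79.4 and 341 CPM against 206, 58.9 and 77.9 CPM in that order. Those of border macrophages summed to 59.0, 57.2 and 244 CPM against 243, 174 and 257 CPM, highest in A2A-2347, as was Itgal. Those of lymphocytes summed to 3.21, 16.0 and 17.1 CPM against 13.4, 3.61 and 5.26 CPM. All of these lists overlapped between the vectors, and the part of such cells in the Itgal values was not tested. Itgb2, the beta subunit that Itgam and Itgal share, was at 108, 247 and 774 CPM against 1077, 983 and 481 CPM. Its groups overlapped, since GFP-2331 was above A2A-2347. The log2 fold changes were 1.81 (SE 0.58) for Itgam, 3.37 (SE 0.74) for Itgal and 1.15 (SE 0.73) for Itgb2. Itgam shares exons with the readthrough gene Gm49368 on its strand, and reads on both were discarded by the counting, so its count is uncertain.

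Among the matrix-binding subunits, Itga6, a laminin receptor subunit, and Itgav separated the vectors in the CD11b fraction. Itga6 was at 39.9, 57.3 and 140 CPM in GFP-2328, GFP-2329 and GFP-2331 and at 168, 362 and 221 CPM in A2A-2343, A2A-2344 and A2A-2347. Itgav was at 23.5, 24.2 and 44.2 CPM against 46.9, 191 and 107 CPM in the same order, so that A2A-2343 was only just above GFP-2331. Itgb1, the common partner of many alpha subunits, was at 156, 164 and 301 CPM against 480, 582 and 221 CPM. Its groups overlapped through A2A-2347. Itgb5, which had the highest level per length of all members, was at 694, 1199 and 3410 CPM against 4181, 5204 and 2183 CPM, with A2A-2347 again below GFP-2331. Itga4, which pairs with Itgb1 to bind VCAM1, was low in all 6 libraries, at 2.27, 1.60 and 3.86 CPM against 7.67, 3.52 and 9.46 CPM, and its groups overlapped. The log2 fold changes were 1.66 (SE 0.54) for Itga6, 1.90 (SE 0.55) for Itgav, 1.01 (SE 0.46) for Itgb1, 1.11 (SE 0.71) for Itgb5 and 1.43 (SE 0.60) for Itga4. The counts of Itga4 and Itgav are uncertain where their exons overlap Cerkl and Gm13684 on the other strand, since the strand setting of the counting is not given in the sources used here.

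In all, 5 of the 10 members (Npnt, Itgam, Itgal, Itga6 and Itgav) were higher in every AAV-A2A than in every AAV-GFP CD11b library, against 12.6% of the 16949 genes tested. The median log2 fold change was 1.54 over the members and -0.05 over all genes tested. By edgeR's quasi-likelihood test 0% of these genes were called at an adjusted p under 0.05 and a log2 fold change beyond 0.32. The unadjusted p was under 0.05 for 2704 of them, and DESeq2 called 2.9% of the genes it tested. The members' values share their libraries and were in view when the set was chosen, so nothing is read from these counts.

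Itgb8 followed another order in the CD11b fraction. It was at 80.7, 53.9 and 2.22 CPM in GFP-2328, GFP-2329 and GFP-2331, and at 2.00, 1.12 and 76.5 CPM in A2A-2343, A2A-2344 and A2A-2347. The 3 high libraries are those with summed choroid plexus markers of 30080 to 74420 CPM, and the 3 low ones those with under 100 CPM. The vectors overlapped fully, and the log2 fold change of -0.72 had an SE of 1.74. Without A2A-2347 it was -4.97, so that 1 library set its size.

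Microglial marker content also differed between the CD11b libraries. The 9 microglial markers, P2ry12 and Tmem119 among them, summed to 7857, 16090 and 58100 CPM in GFP-2328, GFP-2329 and GFP-2331 and to 64410, 51790 and 21710 CPM in A2A-2343, A2A-2344 and A2A-2347. Per 1000 CPM of these markers, Npnt was at 1.17, 0.91 and 0.33 CPM in the AAV-GFP libraries and at 0.88, 1.51 and 2.45 CPM in the AAV-A2A libraries, in the same order. On this scale the vectors overlapped for Npnt, since GFP-2328 and GFP-2329 were above A2A-2343. Itgb2 per 1000 CPM of markers was at 13.8, 15.4 and 13.3 CPM against 16.7, 19.0 and 22.2 CPM. Its groups no longer overlapped, though A2A-2343 was only just above GFP-2329. Itgal stayed apart, at 0.10, 0.11 and 0.07 CPM against 0.32, 0.23 and 1.56 CPM. No overlap with higher values in AAV-A2A was found for 0.559% of all 18602 genes on this scale, and for Itgb2 and Itgal among the members. The divisor was lowest in GFP-2328 and GFP-2329, which raises the ratio there for any gene not tied to microglia. Few such genes can then be higher in every AAV-A2A library, so this share does not measure how unusual Itgb2 and Itgal are. The ratio of the group means on the log2 scale was 1.01 for Npnt, 1.00 for Itgam, 0.45 for Itgb2 and 2.89 for Itgal. It was 0.84 for Itga6, 0.83 for Itgav and -0.29 for Itgb1.

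**Figure D2:**
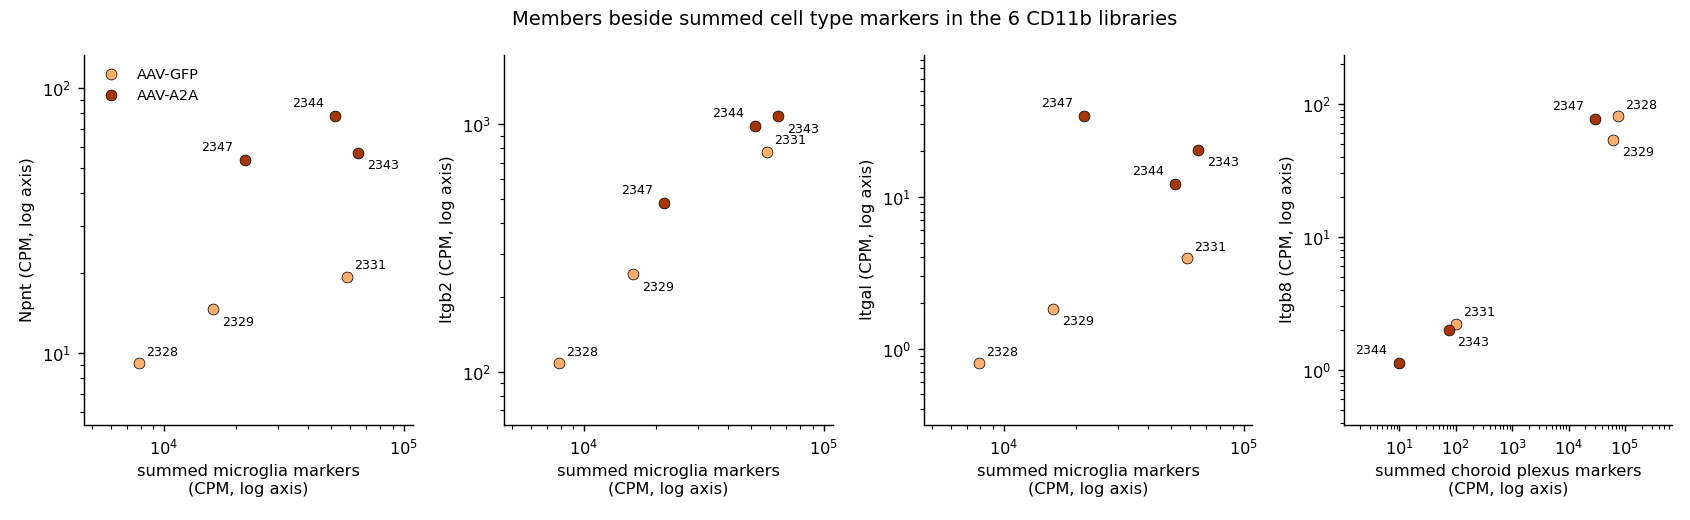
Level of Npnt, Itgb2, Itgal and Itgb8 (CPM) in the 6 CD11b libraries against the summed CPM of microglial markers (the first 3 panels) or of choroid plexus markers (last panel), all axes logarithmic, with library numbers beside the points. Itgb2 is higher in libraries with more microglial markers in both vectors, Npnt of A2A-2343, at 56.7 CPM, lies above that of GFP-2331, at 19.4 CPM, with similar marker sums, and Itgb8 is high in the libraries with many choroid plexus transcripts.

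The libraries nearest in marker content were GFP-2331, A2A-2343 and A2A-2344, which are poor in choroid plexus markers. A fit on these alone, chosen after seeing the data, left 1 AAV-GFP library against 2 of AAV-A2A, and the lone library is assumed to vary like the others. Npnt then had a log2 fold change of 1.78 (SE 0.77), Itgav 1.41 (SE 0.71), Itgal 2.01 (SE 0.92) and Itgam 1.14 (SE 0.68). The values were 0.91 (SE 0.67) for Itga6, 0.80 (SE 0.68) for Itgb1, 0.51 (SE 0.98) for Itga4, 0.44 (SE 0.72) for Itgb5 and 0.39 (SE 0.68) for Itgb2. The transcript length trend was highest in A2A-2344 (1.29) and A2A-2347 (0.98), and -0.11 in A2A-2343. Over all CD11b libraries it moved in the same direction as 9 of the 10 members, all but Itgb8 (log2 fold change -0.72). Its part in their values was not tested. Over all genes tested the median CD11b log2 fold change was 0.46 for long and -0.78 for short transcripts. Among the members, the longest transcripts are 2970 bases for Itgb2, 4619 for Npnt, 5222 for Itgal, 7054 for Itgav, 8403 for Itgb8 and 9767 for Itga4.

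In the ACSA-2 fraction, Itgb8 was the 1 member called between the vectors among the 9 tested. This gene (chr12:119158022-119238802, GRCm38, minus strand) encodes the beta subunit by which astrocytes bind latent TGF-beta. It was at 230, 188 and 228 CPM in GFP-303, 306 and 307 and at 85.4, 49.0 and 73.0 CPM in A2A-309, A2A-310 and A2A-313. All 3 AAV-A2A libraries lay below all 3 controls, at means of 69.1 ± 18.5 against 215 ± 23.4 CPM (SD, n = 3 each). Itgb8 fell by 1.61 on the log2 scale (SE 0.22, adjusted p = 0.00496, edgeR's quasi-likelihood test over 16451 genes), and 1 of the 9 members tested was called, against 3.36% of all genes (3.19% lower and 7.13% in either direction by DESeq2). Values below all controls without overlap were found for 10.9% of all genes. The call held when each library was left out in turn, with log2 fold changes of -1.78 to -1.41. It did not hold when all 12 libraries shared 1 estimate of the spread (-1.64, adjusted p = 0.88), a fit that takes in the CD11b libraries between which Itgb8 varies as described.

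The fall of Itgb8 stood beside other shifts in the same libraries. The 6 markers of oligodendrocyte precursors, cells that also express Itgb8, summed to 216, 303 and 307 CPM in AAV-GFP and to 85.8, 61.8 and 54.1 CPM in AAV-A2A, without overlap. Of their 5 tested genes, Cspg4, which pericytes also express, fell (log2 fold change -2.18, edgeR adjusted p = 0.00226), and Pdgfra (-0.39, adjusted p = 0.807), Vcan, Cacng4 and Tnr were not called. Long transcripts, Itgb8 with 8403 bases among them, were lower as a class. Of the 3275 genes tested with transcripts over 5000 bases, 7.48% were called lower in AAV-A2A, against 0.37% of the 2972 genes under 1500 bases, and the median log2 fold changes were -0.18 and 0.17. Summed oligodendrocyte markers were at 42.2, 43.2 and 65.0 CPM in AAV-GFP and at 78.4, 67.1 and 71.1 CPM in AAV-A2A, higher without overlap. Markers of monocytes and neutrophils were lower, as given further on. The part of any of these shifts in the value of Itgb8 was not tested. Astrocyte markers summed to 22630 to 26720 CPM in AAV-GFP and 22810 to 35660 CPM in AAV-A2A and overlapped.

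**Figure D3:**
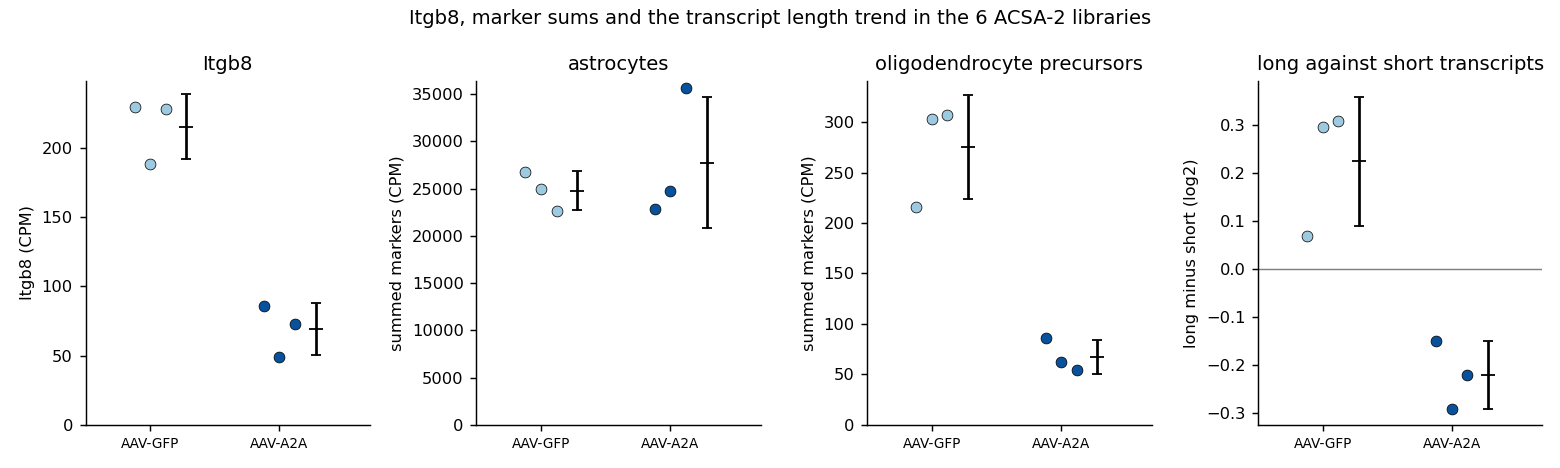
Itgb8 (CPM), the summed CPM of astrocyte and of oligodendrocyte precursor markers, and the long-minus-short transcript difference (log2) in the 6 ACSA-2 libraries by vector (points are libraries, bars the mean ± SD of 3). Itgb8, at 49.0 to 85.4 CPM in AAV-A2A against 188 to 230 CPM in AAV-GFP, the precursor markers and the length difference do not overlap between the vectors, while the astrocyte markers do.

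Itgb1, Itgb5 and Itga6 had fitted differences near 0 between the vectors in the ACSA-2 fraction. Itgb1 was at 80.9 to 100 CPM in AAV-GFP and 90.2 to 94.3 CPM in AAV-A2A (log2 fold change 0.01, SE 0.17). Itgb5 was at 172 to 237 against 172 to 259 CPM (-0.02, SE 0.22), and Itga6 at 23.4 to 35.6 against 25.5 to 29.3 CPM (-0.05, SE 0.24). None of these was called by edgeR (adjusted p = 0.971 to 0.991). Itgav was at 24.0 to 44.9 against 20.3 to 30.0 CPM (-0.50, SE 0.28, edgeR adjusted p = 0.54), and its value was -0.72 to -0.32 with 1 library left out. Itga4 was at 0.88 to 3.11 against 0.67 to 4.0 CPM (0.37, SE 0.83, adjusted p = 0.933).

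Of the leukocyte subunits, Itgal was near the limit of detection in ACSA-2 libraries. It had 27, 6 and 8 counted reads in GFP-303, 306 and 307 and 0 in each AAV-A2A library, and was too low to be tested. The 0 reads over the 3 AAV-A2A libraries allow up to 0.0242 CPM, taking 3 counts over the group as the floor. The observed pooled AAV-GFP level was 15.4-fold this floor. GFP-303 gave 27 of the 41 reads, and without it the level was 8.17-fold the floor. These ratios allow for counting error on the AAV-A2A side only, and reads amplified by PCR are not independent molecules. Itgam had 134, 26 and 38 reads against 28, 8 and 16 (log2 fold change -1.95, SE 1.04, edgeR adjusted p = 0.50), and Itgb2 23, 110 and 272 against 138, 76 and 162. The markers of monocytes and neutrophils summed to 2.43 to 3.76 CPM in AAV-GFP and to 0.17 to 0.54 CPM in AAV-A2A of this fraction. Their part in the Itgal counts was not tested.

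**Figure D4:**
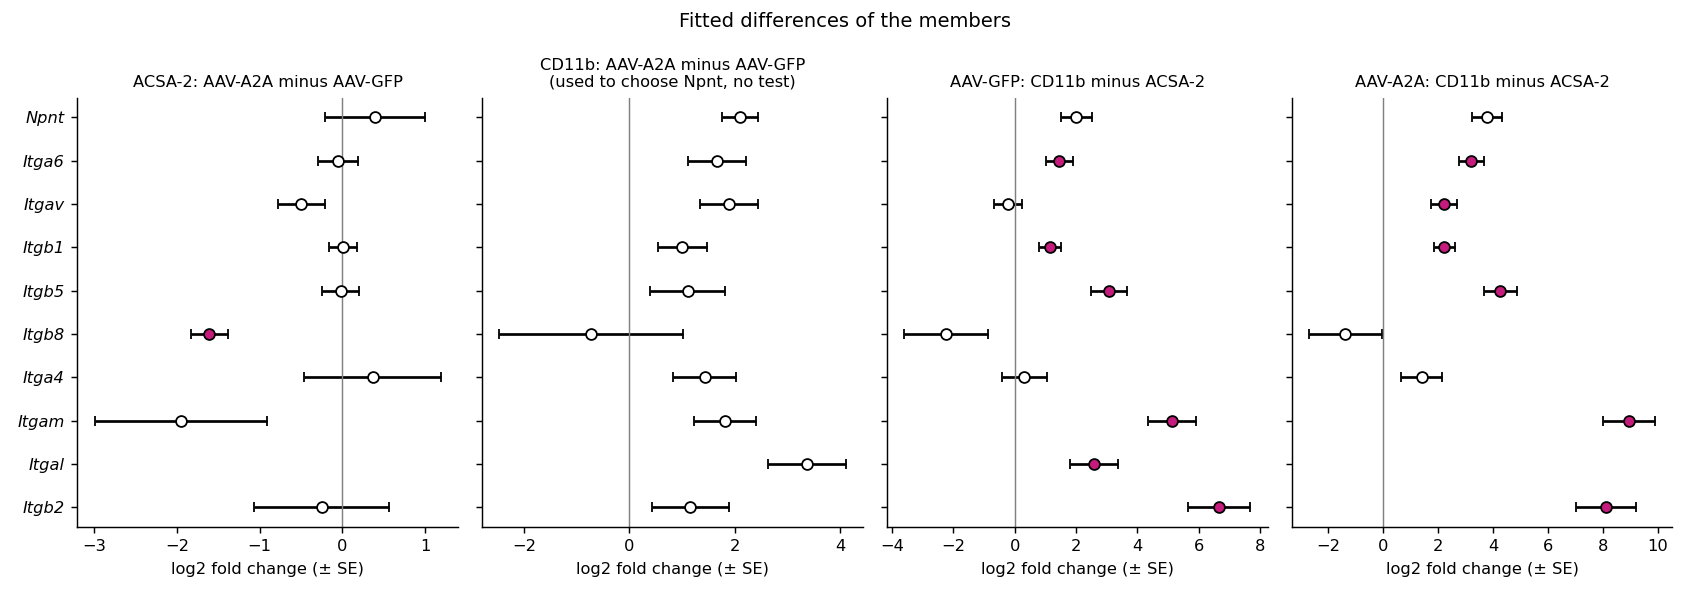
Log2 fold change with its SE for each member in the 4 comparisons (AAV-A2A minus AAV-GFP in either fraction, and CD11b minus ACSA-2 in either vector), filled where edgeR called the gene, each panel with its own axis. Npnt is not filled wherever CD11b libraries enter, since it was chosen on them. Itgal is left out where it was not tested or where a group held 0 reads. Itgb8 is the filled point in the ACSA-2 panel, at -1.61, and 6 points are filled in the AAV-GFP fraction panel. Itgam, whose product is the sort antigen, is among these 6, as is Itgb2, its partner in CR3.

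The comparison of the fractions shows where each member was found. Whether the ACSA-2 and CD11b libraries came from the same animals is not stated, and any difference in handling between the sorts cannot be told apart from the fraction. The members' CD11b values were in view when the set was chosen, so their calls between the fractions are not independent of that choice. In AAV-GFP animals 6 of the 9 subunits were called higher in CD11b than in ACSA-2 libraries, where edgeR called 26.7% of 18602 genes, 14.4% higher in CD11b. Itgam is among the 6, and since its product is the antigen of the sort, its call was set by the sort. Itgb2, whose product pairs with that of Itgam in CR3, is also among the 6, and its call is not independent of the sort. Npnt was at 9.15 to 19.4 CPM in CD11b and 2.71 to 4.73 CPM in ACSA-2 libraries, without overlap. Its log2 fold change was 2.02 (SE 0.50), given without a test because these CD11b libraries are among those that Npnt was chosen on.

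Itgb2 had the largest fraction difference among the members (log2 fold change 6.66, SE 1.02, edgeR adjusted p = 0.000887). Since its product forms CR3 with the sort antigen, this difference cannot be told apart from the sort. Itgam, at 5.13 (SE 0.79), encodes the antigen of the sort, and its difference is the sort and no finding. Itgb5 was higher in CD11b by 3.08 (SE 0.57, adjusted p = 0.00269). Both Itgb2 and Itgb5 kept the call when any library was left out.

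The calls of Itgal (2.59, SE 0.79, edgeR adjusted p = 0.0371), Itga6 (1.46, SE 0.44, adjusted p = 0.0295) and Itgb1 (1.15, SE 0.37, adjusted p = 0.0367) rested on single libraries. Itgal lost its call without GFP-306 (adjusted p = 0.114), GFP-307 (0.104), GFP-2329 (0.0648) or GFP-2331 (0.112). Itga6 lost it without GFP-303 (0.0915), GFP-306 (0.101) or GFP-2331 (0.125), and Itgb1 without GFP-303 (0.0856), GFP-306 (0.117), GFP-307 (0.0568) or GFP-2331 (0.127). On the 6 AAV-GFP libraries alone Itgal (0.0948) and Itga6 (0.068) also lost it. Without the choroid-rich libraries, a setting chosen after seeing the data, the log2 fold changes were 3.47 for Itgal, 2.31 for Itga6 and 1.72 for Itgb1. GFP-2331 is then the only CD11b library of AAV-GFP, with its spread taken from the other groups, and these values are given as a description.

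Itgb8, Itgav and Itga4 were not called between the fractions of AAV-GFP animals. Itgb8 was lower in every CD11b library, at 2.22 to 80.7 against 188 to 230 CPM (log2 fold change -2.24, SE 1.36, edgeR adjusted p = 0.245). Without the choroid-rich libraries GFP-2328 and GFP-2329, and A2A-2347, the value was -6.57 (SE 0.60), from 1 CD11b library of AAV-GFP. Itgav, at 23.5 to 44.2 against 24.0 to 44.9 CPM, had a log2 fold change of -0.22 (SE 0.46, adjusted p = 0.748), which turned to 0.33 in the same fit.

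In AAV-A2A animals edgeR called 46% of the genes between the fractions, 25% higher in CD11b. The same 6 subunits, with Itgam again set by the sort and Itgb2 not independent of it, were among the latter. So was Itgav (log2 fold change 2.21, SE 0.48, edgeR adjusted p = 0.00291). Itgav was not called in AAV-GFP animals. Its call here rests on the same CD11b values of AAV-A2A (46.9 to 191 CPM) as its vector difference, and adds no separate evidence for that difference. Npnt, at 53.3 to 78.1 against 1.61 to 7.11 CPM, had a log2 fold change of 3.77 (SE 0.54), given without a test because its CD11b values in these libraries led to its choice. Itgb1 was higher in CD11b by 2.22 (SE 0.38, adjusted p = 0.000673), Itga6 by 3.21 (SE 0.47, adjusted p = 0.00027) and Itgb5 by 4.26 (SE 0.61, adjusted p = 0.000237). The observed pooled level of Itgal in CD11b was 1010-fold the floor of 3 counts over the ACSA-2 group. Itgb8 (-1.38, SE 1.33, adjusted p = 0.415) and Itga4 (1.39, SE 0.75, adjusted p = 0.15) were not called. Without A2A-2347 the value of Itgb8 was -5.46 (adjusted p = 0.00345).

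Levels of different genes were compared per kilobase of exon (RPKM). In ACSA-2 libraries of AAV-GFP the order was Itgb5 (58.9 ± 9.37 RPKM), Itgb1 (22.8 ± 2.59), Itgb8 (19.5 ± 2.12), Itgav (3.33 ± 1.00), Itga6 (3.18 ± 0.70) and Itgb2 (1.22 ± 1.1), with Npnt next at 0.71 ± 0.21 RPKM (SD, n = 3). Itgb1 and Itgb8 overlapped, as did Itgav and Itga6, and all neighbours from Itgb2 down to Itgal. In AAV-A2A Itgb8, at 6.25 ± 1.67 RPKM, kept its place in this order but no longer overlapped Itgb1, at 22.6 ± 0.51 RPKM. In the CD11b libraries of AAV-GFP Itgb5 led with 498 ± 407 RPKM, followed by Itgb2 (123 ± 115), Itgb1 (50.7 ± 19.9), Itgam (12.2 ± 8.76) and Itga6 (8.74 ± 5.89), and in this list only Itgb1 and Itgam did not overlap as neighbours. Npnt was 7th there, at 2.86 ± 1.02 RPKM, and 6th in AAV-A2A, at 12.5 ± 2.67 RPKM, where it overlapped Itgav (10.7 ± 6.74 RPKM). The level of Itga6 depends on the length used, 3.18 RPKM with all its exons joined and 6.65 RPKM with its longest transcript in ACSA-2 libraries of AAV-GFP.

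Of the known partners of Npnt, Itga8 was low in both fractions. It had 101, 37 and 71 reads in GFP-303, 306 and 307 and 28, 40 and 41 in A2A-309, A2A-310 and A2A-313 (log2 fold change -1.06, SE 0.80, edgeR adjusted p = 0.691). In CD11b libraries it had 194, 11 and 59 reads in AAV-GFP and 25, 41 and 704 in AAV-A2A, so that A2A-2347 and GFP-2328 held most of them. Both are rich in choroid plexus transcripts, as is GFP-2329, which had the fewest reads. Its log2 fold change between the vectors there was 1.41 (SE 1.36), and between the fractions it was -0.04 (SE 1.08, edgeR adjusted p = 0.983) in AAV-GFP and 2.40 (SE 1.14, adjusted p = 0.104) in AAV-A2A. Egfl6, the closest relative of nephronectin, was an ACSA-2 gene, at 9.52 to 18.4 CPM in AAV-GFP and 14.0 to 21.9 CPM in AAV-A2A (log2 fold change 0.43, SE 0.33, edgeR adjusted p = 0.695). In CD11b libraries it had 13, 0 and 54 reads in AAV-GFP and 1, 1 and 0 in AAV-A2A. It was lower in CD11b than in ACSA-2 libraries of AAV-GFP by a log2 fold change of -4.70 (SE 1.16, edgeR adjusted p = 0.0121), and was also called lower in AAV-A2A (edgeR adjusted p = 0.000438). The higher levels of Npnt were in the other fraction, CD11b.

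Among the other integrin subunits, 2 of 13 tested fell in the ACSA-2 fraction with AAV-A2A and 0 rose, where 3.19% of all genes, and 7.48% of those with transcripts over 5000 bases, were called lower. The longest transcripts of the genes that fell here are 10967 bases for Itga1, 14187 for Hspg2, 5386 for Ltbp4, 4861 for Itga3, 4678 for Ptk2 and 3142 for Bcar1. Itga1, a collagen receptor subunit, went from 160 ± 32.7 to 49.9 ± 10.8 CPM (SD, n = 3, log2 fold change -1.66, edgeR adjusted p = 0.00406). Itga3, a laminin receptor subunit, went from 63.6 ± 23.2 to 22.3 ± 6.49 CPM (-1.49, adjusted p = 0.0402). The median over the list was -0.63, against 0.02 over all genes tested. Of 22 matrix ligands 1 fell, Hspg2, which encodes the basement membrane proteoglycan perlecan (-2.48, adjusted p = 0.00505). Of 22 activation and adhesion genes 2 fell, the focal adhesion kinase gene Ptk2 (-1.07, adjusted p = 0.0101) and its partner Bcar1 (-1.42, adjusted p = 0.00371). Of 8 latent TGF-beta genes, Ltbp4, a binding protein of latent TGF-beta, fell (-1.98, adjusted p = 0.00639). No gene of these lists rose by edgeR, and DESeq2 called 1 activation gene higher. Of 7 cell surface ligands and 4 relatives and partners of nephronectin 0 were called by edgeR, and DESeq2 called 1 of the former. Of all genes tested there, 2141 had an unadjusted p under 0.05.

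Between the fractions of AAV-GFP animals, the lists held genes of either side. Of all 18602 genes tested there, 14.4% were called higher in CD11b and 26.7% in either direction. Of these CD11b libraries, GFP-2328 and GFP-2329 held 74420 and 61570 CPM of choroid plexus markers, against 7857 and 16090 CPM of microglial markers. The part of this content in the values of the lists was not tested. Of 16 other subunits 4 were higher in CD11b, Itga9 (30.0 ± 15.9 against 1.07 ± 1.24 CPM), Itgb3 (17.6 ± 18.7 against 0.45 ± 0.63), Itgb7 and Itga5, and 2 were lower, Itga1 and Itga7 (14.0 ± 2.49 against 53.8 ± 8.14 CPM). Of 22 matrix ligands 1 was higher, Thbs1, and 7 lower, among them the RGD protein Mfge8, a ligand of Itgav with Itgb5, at 371 ± 129 against 5592 ± 412 CPM (log2 fold change -3.91, edgeR adjusted p = 0.000122), Thbs4, Tnc and Lama2. Of 9 cell surface ligands Icam1, a ligand of LFA-1 and CR3, was higher (271 ± 90.2 against 7.57 ± 4.15 CPM, log2 fold change 5.16, adjusted p = 6.44e-05), as was F11r, and C3 and Jam3 were lower.

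Of 22 activation and adhesion genes 9 were higher in CD11b and 6 lower, where 14.4% of all genes were called higher and 26.7% in either direction. The kindlins, which activate integrins, took opposite sides, with Fermt3 at 422 ± 379 against 5.28 ± 4.51 CPM and Fermt2 at 50.8 ± 14.1 against 302 ± 31.6 CPM. The kinases Ptk2b (log2 fold change 4.85, edgeR adjusted p = 0.000263) and Ptk2 (-2.52, adjusted p = 0.000211) did likewise, Parvg and Apbb1ip were higher, and Vcl and Src lower. Of 8 latent TGF-beta genes Tgfb1 (3.91, adjusted p = 0.00155) and Nrros (3.6, adjusted p = 0.00133), which anchors latent TGF-beta on microglia, were higher and Ltbp1 (-3.75, adjusted p = 0.0048) lower. In AAV-A2A animals 25% of all genes were called higher in CD11b and 46% in either direction. The list counts there, higher and lower in CD11b, were 5 and 0 of 16 other subunits and 3 and 6 of 22 matrix ligands. For cell surface ligands they were 2 and 1 of 9. For activation genes they were 8 and 4 of 22, and for latent TGF-beta genes 3 and 0 of 8. In the CD11b vector comparison edgeR called 0 genes of any list, and the median log2 fold changes were 0.80 for 17 other subunits, 0.96 for 22 matrix ligands, -0.32 for 9 cell surface ligands, 0.21 for 22 activation genes and 0.72 for 8 latent TGF-beta genes.

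The genes whose levels followed Npnt most closely over the 12 libraries were Map3k14, Arhgap39, Rapgef5, Git2 and Limk1, compared by the root mean square difference of centred log2 CPM among 11622 genes whose mean over the libraries reached 5 CPM. The difference was 0.34 for Map3k14 and 0.46 to 0.49 for the other four, against a median of 1.85 over all genes. Map3k14 was at 1.98 to 7.45 CPM in the ACSA-2 libraries, 9.71 to 32.7 CPM in CD11b libraries of AAV-GFP and 36.4 to 96.9 CPM in those of AAV-A2A. Among the members that reached this mean, which Itga4 did not, Itga6 was nearest to Npnt (0.70, rank 133) and Itgb8 farthest (4.12, rank 11222). Itgam, whose promoter window is shown beside that of Npnt, was at 2.28 (rank 8034), farther than the median gene. This is a description over libraries that share fraction, vector and length trend.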

How the data were processed

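The authors trimmed reads with cutadapt 1.10, aligned them to mm10 (GRCm38) with STAR 2.5.3 and counted unique, unambiguous reads per Ensembl gene with HTSeq 0.6.1p1. The deposited values are these raw counts, without normalization, from PCR-amplified full-length cDNA without molecular identifiers. Here 25442 genes found in both tables were used for levels and fractions. Vector contrasts were fitted within a fraction and fraction contrasts over all 12 libraries, with edgeR 4.0.16 (TMM, filterByExpr, robust quasi-likelihood test, Benjamini-Hochberg adjustment over all tested genes) in R 4.3.3. A gene was called at an adjusted p under 0.05 and an absolute log2 fold change over 0.32. DESeq2 1.42.0, other scalings and filters, a joint fit and each library left out were alternatives. The fits were tested on simulated data. Labels gave all groups. The study describes the ACSA-2 data as 3 animals per group. For CD11b libraries the sources used here do not give the animals, so p-values with them measure the spread between these samples, which may be technical. Libraries of a group differed by 51.6 to 1199 times the counting noise (chi-square per degree of freedom).

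The members and the gene lists were chosen with earlier results of these data known. Named were all members, Itga8 and Egfl6 in each comparison, up to 4 called genes of a list in each direction with the largest fold change, no overlap and a mean of at least 5 CPM, and the 5 genes nearest to Npnt. Cspg4, Pdgfra, Vcan, Cacng4, Tnr and Adora2a were named after their values were seen. Other marker lists were not described in the text, or only for the ACSA-2 fraction. Over all 12 libraries their sums were 57.2 to 257 CPM for border macrophages, 338 to 1662 CPM for endothelial cells and 36.7 to 1357 CPM for ependymal cells. They were 44.6 to 458 CPM for fibroblasts, 3.21 to 22.6 CPM for lymphocytes and 241 to 1011 CPM for mural cells. For neurons they were 4.97 to 195 CPM, for oligodendrocytes 42.2 to 126 CPM and for red cells 56.7 to 5985 CPM.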

Additional observations from a re-analysis of the deposited data

Results flagged for a closer look

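Itgal differed with the vector in opposite directions in the fractions, without overlap between the vectors in either. Its mean was 0.36 CPM in AAV-GFP and 0.0 CPM in AAV-A2A ACSA-2 libraries, and 2.20 CPM in AAV-GFP and 22.1 CPM in AAV-A2A CD11b libraries. The difference between the fractions was not tested, and the ACSA-2 values rest on 41 counted reads in all.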

How the results depend on the processing

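No paired analysis was possible because the groups share no replicate numbers. Of 98 alternative values of member log2 fold changes in the ACSA-2 vector comparison, 83 kept direction and side of the threshold, as did 90 of 106 for the subunits in the AAV-GFP and 104 of 106 in the AAV-A2A fraction comparison. The count of 553 called genes between the vectors in ACSA-2 (29 higher, 524 lower) was 1277 with DESeq2 (277 higher, 1000 lower), 156 with all 12 libraries in 1 fit, and 272 to 448 with 1 library left out. The count of 0 in CD11b was 502 with DESeq2 and 3 without the choroid-rich libraries, an alternative chosen after seeing the data. DESeq2 moved the median log2 fold change of all genes from -0.05 to -0.31 in CD11b and from 0.05 to -0.09 between the fractions of AAV-A2A animals.

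Signs that turned belonged to members that were not called. In ACSA-2, leaving out 1 library gave log2 fold changes of -0.051 to 0.79 for Npnt, -0.78 to 0.67 for Itgb2, -0.18 to 0.13 for Itga6, -0.076 to 0.048 for Itgb1, -0.065 to 0.82 for Itga4 and -0.26 to 0.085 for Itgb5, and the 12-library fit gave -0.016 for Itgb1. Between the AAV-GFP fractions Itga4 went from -0.087 to 0.75, and Itgav was 0.33 without the choroid-rich libraries. The cause was not tested. Unscaled CPM moved 0 of the 40 group means of the members by more than 1 SD, and the longest transcript as length moved 10 of 40. With a prior count of 10 the same 5 genes were nearest to Npnt. Genes below about 10 reads per library, such as Itgal in ACSA-2, are limited by depth.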
